A study of Mus musculus with 15 samples.

Results

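The genes described here are 56 genes of ribosome biogenesis and the nucleolus, of which 55 encode nucleolar or ribosome assembly factors and the other one is the transcription factor gene Myc. They were chosen by function from a list of gene symbols, and all 56 were found among the 25639 symbols of the deposited count table. Each of the 56 also passed the filter on low counts that left 12401 genes for testing, and the lowest count of any of them in any library was 120. Members were grouped by role, from the small nucleolar ribonucleoproteins that modify ribosomal RNA to the factors that assemble the small and the large subunit.

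The study used RAW264.7, an established mouse macrophage line with a wild-type genotype per the labels, and sequenced RNA from cells given a peptide named LCCL and from cells without it. The title of the series presents it as a candidate peptide drug around an LCCL core motif that drives M1, or classically activated, macrophages. The 15 libraries formed 5 groups of 3, namely 24 h with 10 µg of LCCL, 24 h with 1 µg, 6 h with 10 µg, 6 h with 1 µg, and untreated cells. Doses are labelled without a volume, no vehicle group is named, the time at which untreated cells were harvested is not stated, and all libraries carry batch label 1, so that time in culture and the peptide cannot be told apart in the comparisons with untreated cells. Nothing in the labels says that replicates came from separate cultures, and the p-values cover no more than the spread from library to library, part or all of which could be technical.

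Ribosomes are built in the nucleolus. RNA polymerase I copies the ribosomal DNA into a long precursor, box C/D and box H/ACA ribonucleoproteins methylate it and convert chosen uridines to pseudouridine, and a large assembly called the small-subunit processome folds and cuts it. Separate sets of GTPases, helicases and scaffold proteins then mature the small and the large subunit before export to the cytoplasm. Many of these genes are textbook targets of MYC, the transcription factor that couples growth signals to ribosome production, and the pathway is one of the most costly that a dividing cell runs.

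Library totals ran from 19085148 to 22434642 counts. Levels are given as CPM, counts scaled by library size after normalization by the trimmed mean of M-values (TMM), and changes as log2 fold changes ± SE from edgeR's quasi-likelihood test, with p-values adjusted by the Benjamini-Hochberg method over all 12401 genes. Rose and fell are used of genes with an adjusted p below 0.05, and n = 3 libraries per group throughout. Replicate 1 of the 1 µg 24 h group stood apart. Its chi-square per degree of freedom against the other 2 libraries of its group was 13.3 and 15, while no other pair of replicates exceeded 7.03. Of 10 macrophage markers 9 were tested, and Mertk had 1 to 7 counts summed over a group. At 24 h, 4 rose and 4 fell at 10 µg, among them Fcgr1, which rose by 1.19 on the log2 scale, and 3 rose and 3 fell at 1 µg. Their summed level was carried by Lyz2, with 7570 ± 505 CPM at 10 µg and 24 h, 9800 ± 1080 CPM at 1 µg and 24 h and 9940 ± 166 CPM in untreated cells (SD), and the sum was 10900 to 12000 CPM at 10 µg and 24 h, 13200 to 15800 CPM at 1 µg and 24 h, and 14600 to 15300 CPM in the other 3 groups. Of 6 neutrophil markers, Csf3r, the receptor of granulocyte colony-stimulating factor, rose at both doses after 24 h. It had 33.8 ± 2.62 CPM at 10 µg and 24 h, 23.1 ± 3.11 CPM at 1 µg and 24 h, and 3.70 ± 0.67 CPM in untreated cells (SD). The other tested marker of that list, S100a8, was lower at 10 µg and 24 h, with 0.275 ± 0.153 CPM there and 0.698 ± 0.345 CPM in untreated cells. At 1 µg and 24 h it had 0.392 ± 0.28 CPM and did not pass. The defining neutrophil genes Ly6g and S100a9 had 0 counts in all libraries, as had Epcam, Col1a1 and Cd3e of the epithelial, fibroblast and T cell lists, of which 0 genes passed the filter. The B cell marker Cd79a rose at both doses, to 0.619 CPM at 10 µg and 24 h and 0.757 CPM at 1 µg and 24 h, against 0.223 CPM in untreated cells. The dendritic cell marker Zbtb46 rose at 1 µg and 24 h, with 1.23 CPM there and 0.624 CPM in untreated cells. The part of these marker changes in the results below was not tested.

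After 24 h at 10 µg, 54 of the 56 members were lower than in untreated cells and 0 were higher, while 70.3% of all tested genes passed the test in either direction with 34.9% lower and 35.4% higher. The median log2 fold change of the 56 was -0.74, against 0.01 for all tested genes. In 54 members all 3 treated libraries lay below all 3 untreated ones, an arrangement seen in 36% of all tested genes. After 24 h at 1 µg, 52 members fell and 0 rose, against 61.8% of all genes called in either direction, 31% lower and 30.8% higher, and the median was -0.56. The summed level of the 56 members was 4310 to 4480 CPM at 10 µg and 24 h, 4770 to 5260 CPM at 1 µg and 24 h, 7510 to 7580 CPM at 10 µg and 6 h, 7420 to 7570 CPM at 1 µg and 6 h, and 7460 to 7650 CPM in untreated cells. The ranges of both 24 h groups were separate from each other and from the other 3, which overlapped. These are shares of the RNA in a library. In bulk RNA, fewer cells that express a gene and less RNA of it per cell cannot be told apart.

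**Figure D1:**
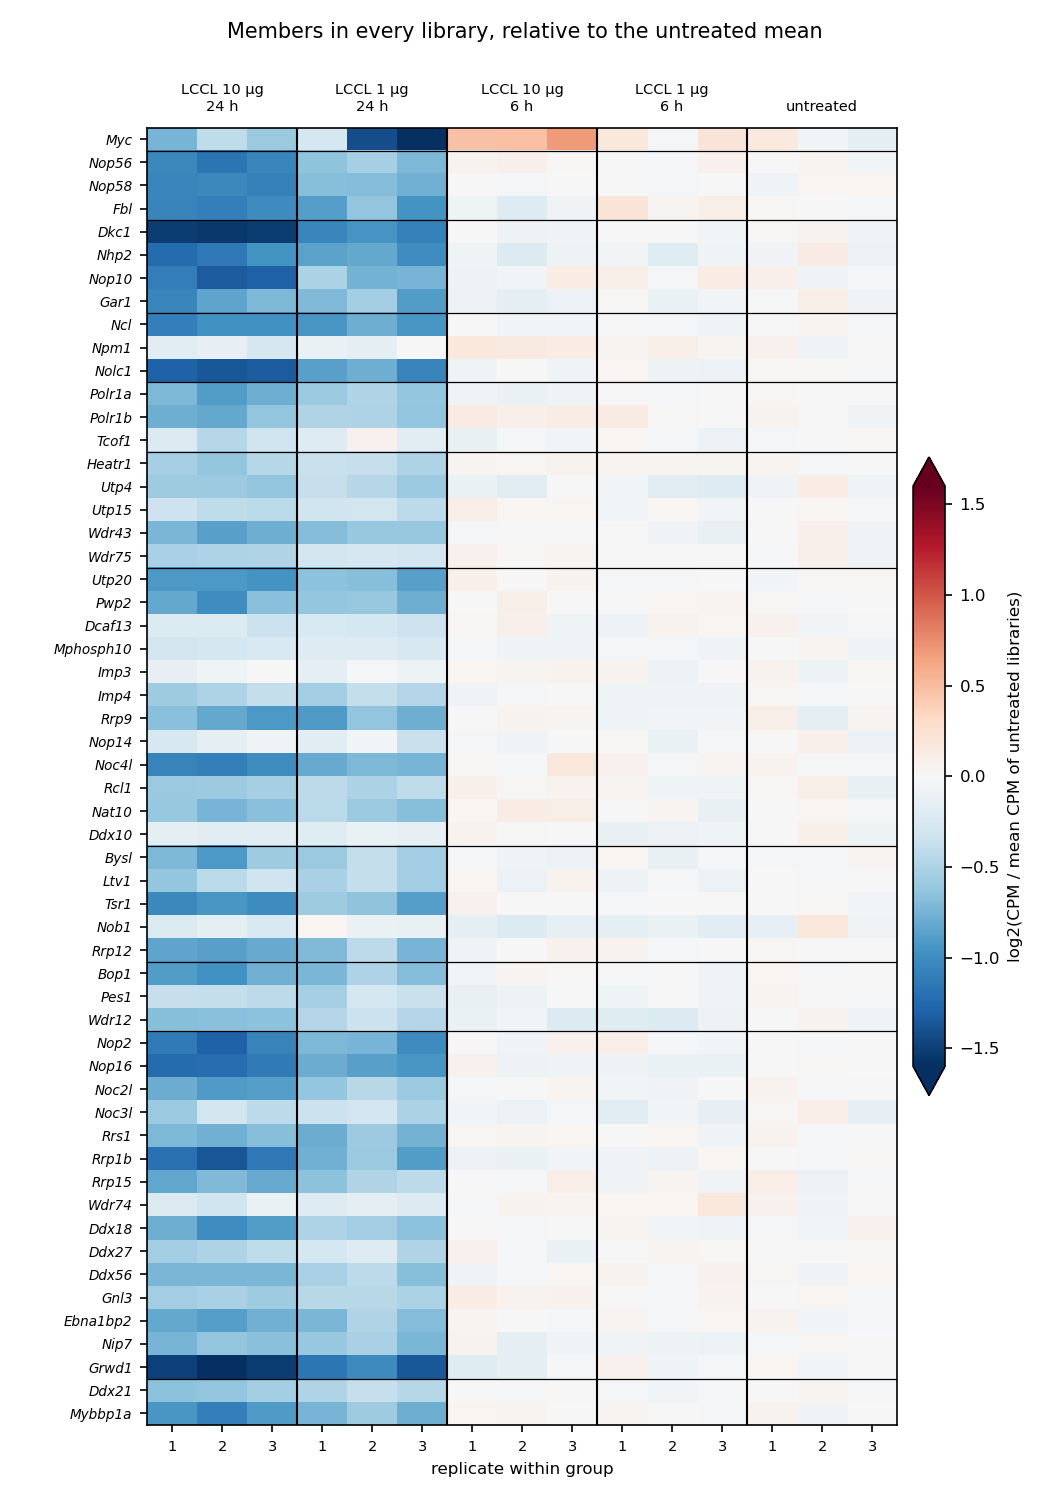
Level of each of the 56 members (rows, in role groups divided by lines) in each of the 15 libraries (columns), as log2 of its CPM over the mean CPM of the untreated libraries. Nearly every row is blue in the 6 libraries taken at 24 h, deepest for Grwd1, Dkc1 and Nolc1 and, in 2 libraries at 1 µg, for Myc, while the 6 h libraries are close to white apart from Myc.

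The box C/D ribonucleoproteins guide methylation of ribosomal RNA, and all 3 members fell at both doses. Nop56, a core scaffold protein, had 120, 109 and 119 CPM at 10 µg and 24 h, 157, 170 and 149 CPM at 1 µg and 24 h, and 246, 252 and 237 CPM in untreated cells. The 3 groups did not overlap. The log2 fold change from untreated cells was -1.08 ± 0.05 at 10 µg (adjusted p = 2.79e-15) and -0.63 ± 0.05 at 1 µg (adjusted p = 1.69e-10). Nop58, its partner in the scaffold, fell by 1.06 and 0.72 on the log2 scale. Fbl, which encodes the methyltransferase fibrillarin, had 6.71, 6.51 and 6.94 CPM at 10 µg and 24 h, 7.55, 8.98 and 7.14 CPM at 1 µg and 24 h, and 14.1, 13.8 and 13.7 CPM in untreated cells. Both treated groups lay below the untreated libraries, with log2 fold changes of -1.04 ± 0.10 and -0.81 ± 0.10 at 10 µg and 1 µg (adjusted p = 1.71e-09 and 1.64e-07).

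The box H/ACA ribonucleoproteins make pseudouridine, and their core proteins also bind telomerase RNA. The 4 core proteins had the lowest median of the role groups with more than 1 member at 10 µg and 24 h, -1.17. Dkc1, the pseudouridine synthase dyskerin, had 48, 47.4 and 48.1 CPM at 10 µg and 24 h, 67, 71.7 and 65.2 CPM at 1 µg and 24 h, and 140, 143 and 132 CPM in untreated cells. At 10 µg it stood at 0.345 of the untreated level (log2 fold change -1.53 ± 0.05, adjusted p = 1.69e-18), and at 1 µg at 0.491 (-1.03 ± 0.05, adjusted p = 5.67e-15), with no overlap among the 3 groups. Nop10, the smallest of the core proteins, had 18.3, 15.7 and 16.1 CPM at 10 µg and 24 h, 27.7, 23.4 and 23.5 CPM at 1 µg and 24 h, and 41.7, 37.7 and 38.9 CPM in untreated cells. It likewise fell in 3 separate steps (-1.24 ± 0.08 and -0.66 ± 0.08, adjusted p = 6.11e-13 and 5.00e-08). Nhp2, which binds the guide RNA, had 48.2, 51.1 and 58.4 CPM at 10 µg and 24 h, 62.3, 63.9 and 56.6 CPM at 1 µg and 24 h, and 109, 124 and 106 CPM in untreated cells. Here the 2 doses overlapped, and both lay below untreated cells (-1.11 ± 0.07 and -0.89 ± 0.07, adjusted p = 1.48e-11 and 9.32e-10). Gar1, the fourth core protein, fell by 0.86 and 0.70 on the log2 scale at 10 µg and 1 µg.

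Of the genes of abundant nucleolar proteins, Nolc1 and Ncl fell at both doses and Npm1 fell at 10 µg. Nolc1, a phosphoprotein that escorts both classes of small nucleolar particle, had 119, 114 and 116 CPM at 10 µg and 24 h, 160, 171 and 140 CPM at 1 µg and 24 h, and 296, 296 and 289 CPM in untreated cells. The groups were separate, and the log2 fold changes were -1.33 ± 0.06 at 10 µg (adjusted p = 2.44e-16) and -0.90 ± 0.06 at 1 µg (adjusted p = 1.03e-12). Ncl, the gene of nucleolin, an RNA-binding protein of precursor processing, had 742, 809 and 814 CPM at 10 µg and 24 h, 835, 927 and 836 CPM at 1 µg and 24 h, and 1590, 1640 and 1550 CPM in untreated cells. Every treated library was below every untreated one (-1.01 ± 0.05 and -0.88 ± 0.05, adjusted p = 5.38e-15 and 3.30e-13). Npm1, the gene of the chaperone nucleophosmin, stood at 215 ± 10.7 CPM at 10 µg and 24 h, 232 ± 13.3 CPM at 1 µg and 24 h, and 245 ± 10.9 CPM in untreated cells. Its fall of 0.19 on the log2 scale passed at 10 µg (adjusted p = 0.00158), and the value of -0.08 at 1 µg did not (adjusted p = 0.161).

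Among the members that serve transcription of ribosomal DNA, the large subunit genes of RNA polymerase I fell together. Polr1a had 92.2 ± 5.74 CPM at 10 µg and 24 h, 108 ± 5.73 CPM at 1 µg and 24 h, and 160 ± 1.16 CPM in untreated cells, log2 fold changes of -0.80 and -0.57 at 10 µg and 1 µg. Polr1b gave -0.74 and -0.54, and all 4 values passed, with adjusted p of at most 3.87e-08. Tcof1, which encodes treacle, a nucleolar cofactor of this polymerase, had 187, 158 and 174 CPM at 10 µg and 24 h, 188, 227 and 193 CPM at 1 µg and 24 h, and 214, 217 and 220 CPM in untreated cells. It fell at 10 µg (-0.33 ± 0.06, adjusted p = 8.72e-05), and at 1 µg the libraries overlapped those of untreated cells (-0.10 ± 0.06, adjusted p = 0.183).

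**Figure D2:**
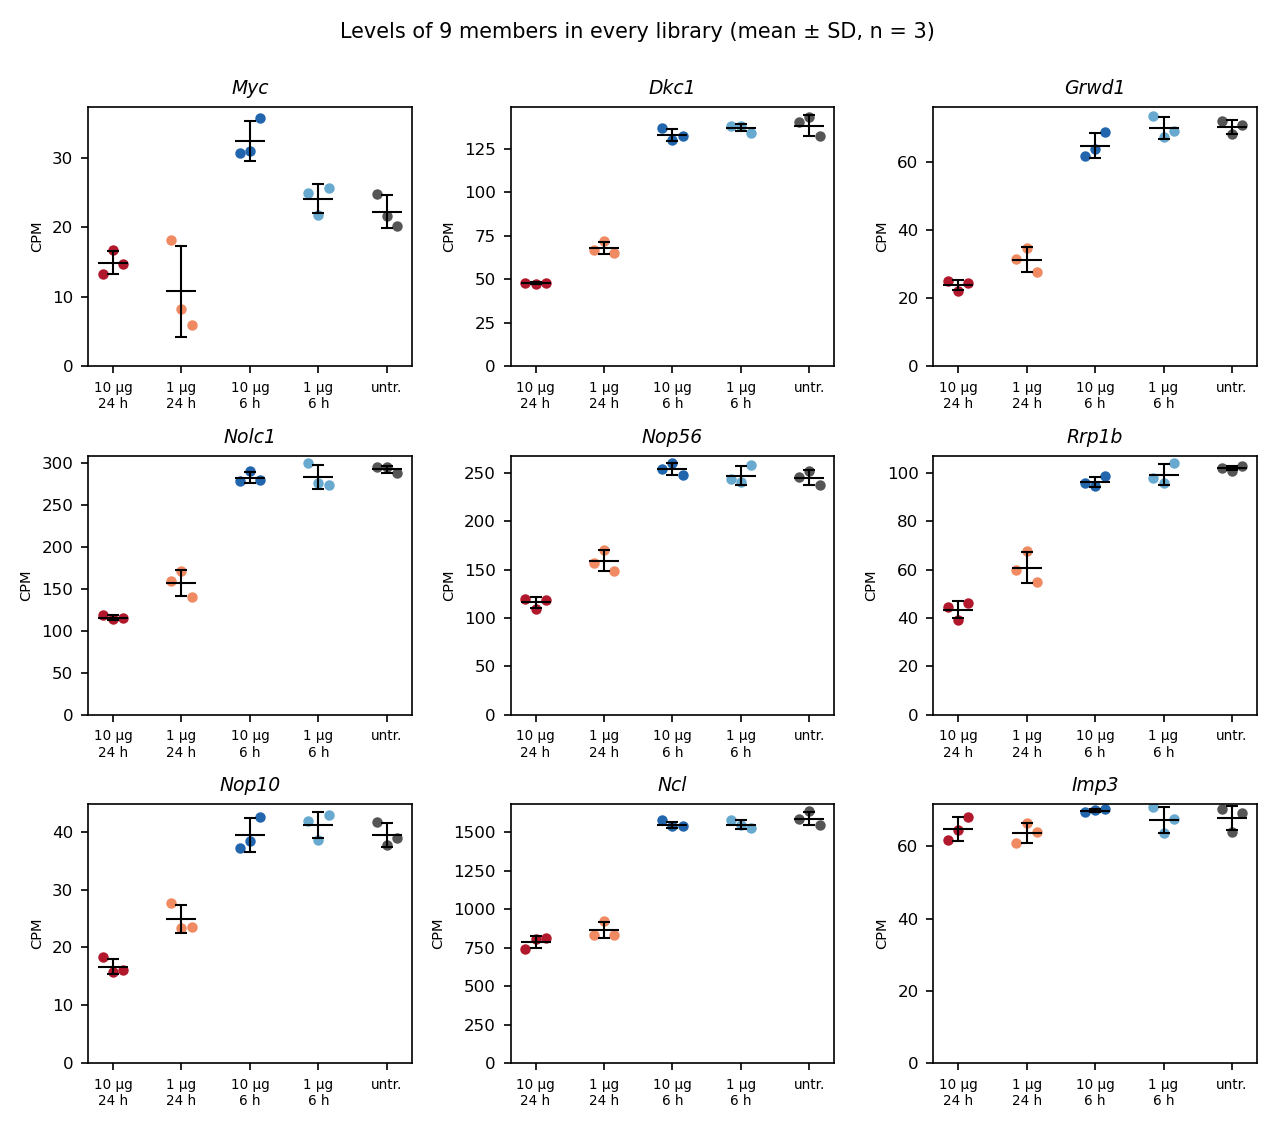
CPM of 9 members in every library (points), with the mean and SD of each group (bars, n = 3). Dkc1, Grwd1, Nolc1, Nop56, Rrp1b and Nop10 are ordered by dose at 24 h and close to untreated cells at 6 h, Imp3 at 24 h overlaps untreated cells, and Myc has its widest spread at 1 µg and 24 h.

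Most members of the small-subunit processome fell at both doses. The 5 members of UTPA, the subcomplex that meets the precursor while it is transcribed, all fell at both doses, with medians of -0.54 at 10 µg and -0.40 at 1 µg. They are Wdr43 (-0.80 and -0.63), Utp4 (-0.59 and -0.47), Heatr1 (-0.54 and -0.40), Wdr75 (-0.50 and -0.29) and Utp15 (-0.39 and -0.34). Of the other 12 processome members, 11 fell at each dose and Imp3 did not pass at either. Noc4l, known in yeast as a partner of Nop14, fell most at 10 µg, with 21.6 ± 0.75 CPM at 10 µg and 24 h, 26.5 ± 0.76 CPM at 1 µg and 24 h and 44.8 ± 1.35 CPM in untreated cells (-1.05 ± 0.06 and -0.76 ± 0.06). Utp20, a large scaffold, gave -0.93 and -0.73, Pwp2 of the UTPB subcomplex -0.82 and -0.66, and Rrp9, a protein of the U3 particle, -0.79 and -0.76. Nat10, the acetyltransferase of small-subunit ribosomal RNA, fell by 0.68 and 0.56 on the log2 scale and Rcl1 by 0.57 and 0.45.

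The Mpp10 complex of the processome included the member nearest to 0 at 10 µg and 24 h. Imp4 fell by 0.48 and 0.47 on the log2 scale at 10 µg and 1 µg, and Mphosph10, its central protein, by 0.27 and 0.22. Imp3, the remaining member, had 61.8, 64.4 and 68.2 CPM at 10 µg and 24 h, 60.9, 66.5 and 63.9 CPM at 1 µg and 24 h, and 70.4, 64 and 69.1 CPM in untreated cells. These overlapped, and the log2 fold changes of -0.06 ± 0.06 and -0.09 ± 0.06 did not pass (adjusted p = 0.303 and 0.17). Dcaf13, the homologue of yeast Sof1, fell by 0.26 and 0.28 on the log2 scale. The smallest falls that passed were those of the helicase gene Ddx10 (-0.17 and -0.14, adjusted p = 0.0117 and 0.0355) and of Nop14 (-0.15 and -0.18, adjusted p = 0.0461 and 0.0205). The call on Nop14 at 10 µg was lost without untreated replicate 1 or 2 or 10 µg 24 h replicate 1 or 2. It was also lost with DESeq2 and with a replicate block. That on Ddx10 at 1 µg was lost without untreated replicate 1 or 2 or 1 µg 24 h replicate 1 or 3. It was also lost with DESeq2, without the filter and in a fit of the compared groups alone. Nop14 at 1 µg lost its call in such a fit and without untreated replicate 2 or 1 µg 24 h replicate 3. Ddx10 at 10 µg lost its call without untreated replicate 2.

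The late small-subunit factors act between the nucleolus and the cytoplasm. Tsr1, a GTPase-like protein of the maturing subunit, had 70.7, 75.2 and 71.9 CPM at 10 µg and 24 h, 96.7, 92.5 and 78.5 CPM at 1 µg and 24 h, and 145, 146 and 140 CPM in untreated cells. The 3 groups were separate, at log2 fold changes of -0.99 ± 0.06 and -0.69 ± 0.06. Rrp12, known in yeast as an export factor, gave -0.84 and -0.61, Bysl -0.73 and -0.51, and Ltv1 -0.45 and -0.48, and all of these passed. Nob1, the nuclease that makes the mature end of small-subunit ribosomal RNA, had 35.8, 37.9 and 35.7 CPM at 10 µg and 24 h, 43.2, 39.1 and 38.8 CPM at 1 µg and 24 h, and 38.4, 47.7 and 40.5 CPM in untreated cells. Only the 10 µg libraries lay below the untreated ones, and the fall there of 0.21 on the log2 scale (adjusted p = 0.00983) was lost without untreated replicate 2.

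Large-subunit assembly held the member with the lowest log2 fold change at both doses. Grwd1, a histone-binding protein whose yeast counterpart chaperones a ribosomal protein, had 25.1, 22.1 and 24.6 CPM at 10 µg and 24 h, 31.7, 34.8 and 27.6 CPM at 1 µg and 24 h, and 72.2, 68.2 and 71 CPM in untreated cells. All 3 groups were separate, and the level was 0.34 of untreated cells at 10 µg (-1.56 ± 0.07, adjusted p = 9.84e-16) and 0.447 at 1 µg (-1.16 ± 0.07, adjusted p = 4.85e-13). Rrp1b, a nucleolar protein of large-subunit processing, had 44.7, 39.4 and 46.1 CPM at 10 µg and 24 h, 60, 67.8 and 54.9 CPM at 1 µg and 24 h, and 102, 101 and 103 CPM in untreated cells (-1.23 ± 0.07 and -0.74 ± 0.06, adjusted p = 1.19e-14 and 2.60e-10). Nop16, a nucleolar protein of the same branch, had 30.2, 30.4 and 32.1 CPM at 10 µg and 24 h, 40.9, 38.7 and 37 CPM at 1 µg and 24 h, and 70.1, 71.4 and 70.5 CPM in untreated cells (-1.19 ± 0.06 and -0.86 ± 0.05, adjusted p = 1.31e-15 and 1.37e-12). These genes too were lowest in the 10 µg libraries and intermediate at 1 µg, with no overlap. Nop2, a methyltransferase of large-subunit ribosomal RNA, had 70.3, 63 and 73.6 CPM at 10 µg and 24 h, 93.8, 91.7 and 76.4 CPM at 1 µg and 24 h, and 155, 151 and 155 CPM in untreated cells (-1.15 ± 0.07 and -0.81 ± 0.07, adjusted p = 7.94e-13 and 5.83e-10), again in 3 separate groups.

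The remaining large-subunit members fell at both doses as well. The PeBoW complex, needed to process the internal spacer of the precursor, gave -0.87 and -0.63 for Bop1, -0.67 and -0.43 for Wdr12, and -0.39 and -0.38 for Pes1, at 10 µg and 1 µg. The helicase genes Ddx18 (-0.89 and -0.56), Ddx56 (-0.73 and -0.53) and Ddx27 (-0.48 and -0.31) fell, as did the nucleolar complex genes Noc2l (-0.86 and -0.55) and Noc3l (-0.43 and -0.38). Ebna1bp2, Rrp15, Rrs1 and Nip7 encode factors of early large-subunit particles. Ebna1bp2 gave -0.82 and -0.63, Rrp15 -0.78 and -0.51, Rrs1 -0.73 and -0.71, Nip7 -0.68 and -0.61, and Gnl3, the GTPase nucleostemin, -0.55 and -0.47. Wdr74 had the smallest fall, 0.22 and 0.19 on the log2 scale (adjusted p = 0.00762 and 0.0217), and its call at 1 µg was lost when either untreated replicate 1 or replicate 3 of the 1 µg 24 h group was left out. Mybbp1a, a nucleolar regulator of transcription and processing, gave -0.97 and -0.69, and the helicase gene Ddx21, which works with RNA polymerase I and small nucleolar RNAs, -0.61 and -0.43.

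**Figure D3:**
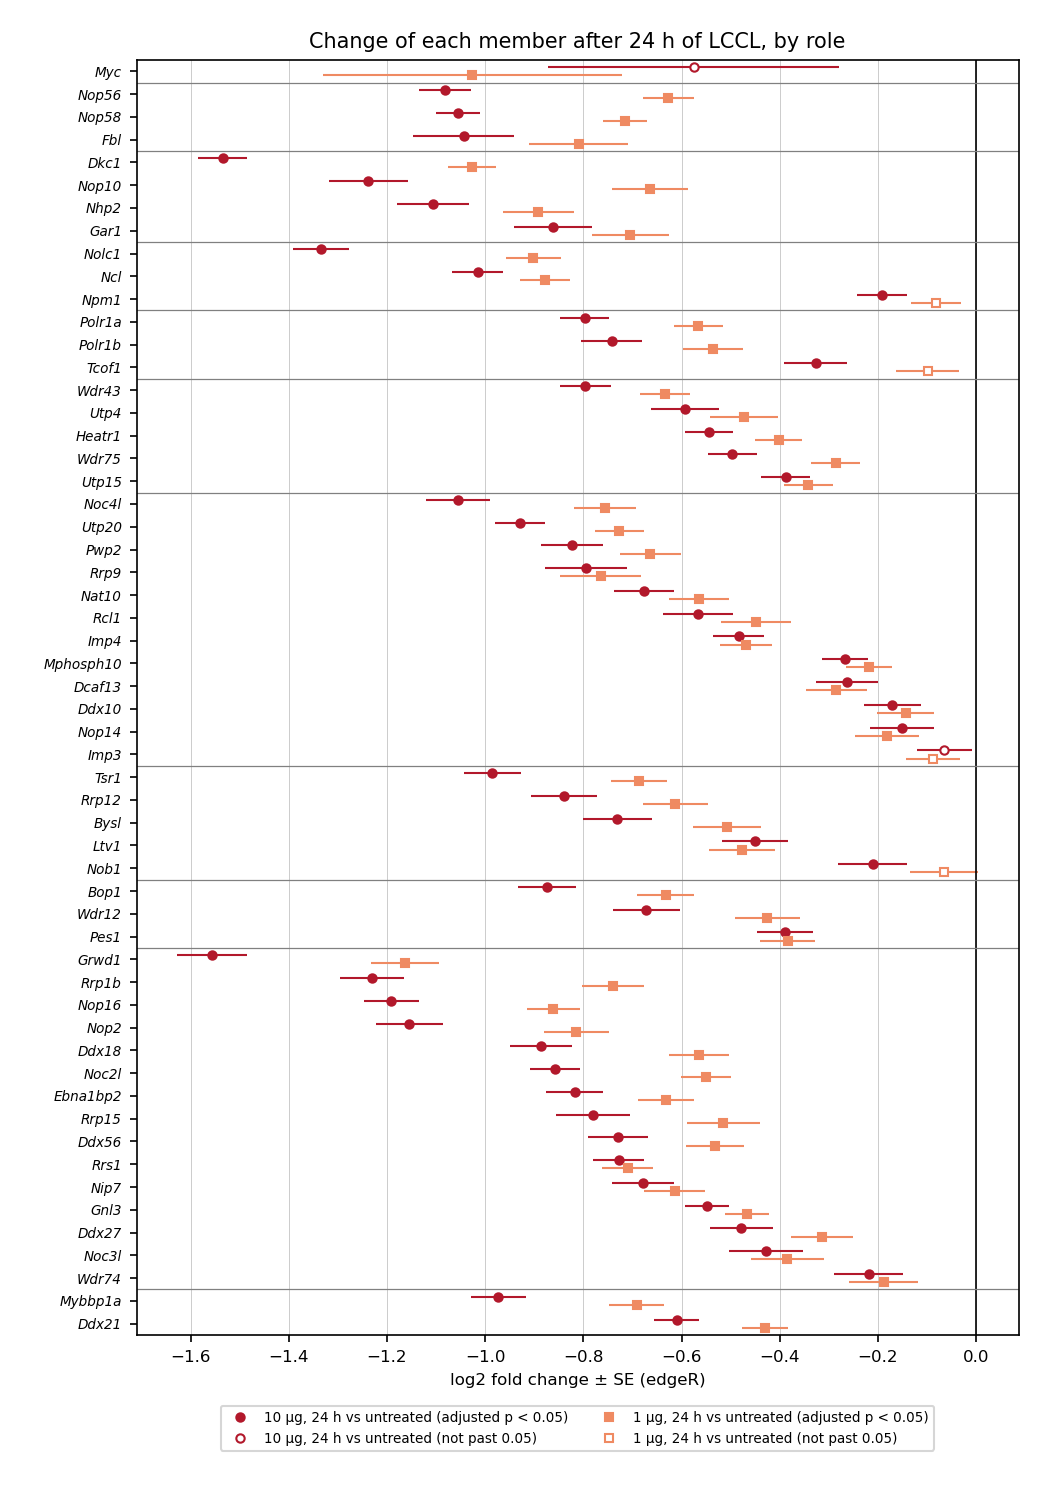
Log2 fold change ± SE of each member after 24 h against untreated cells, at 10 µg (circles) and 1 µg (squares), by role group and ordered within it by the value at 10 µg; open symbols did not pass an adjusted p of 0.05. All points lie left of 0, from -1.56 for Grwd1 to -0.06 for Imp3 at 10 µg, and the circle is left of the square for 51 of the 56 members.

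A fall of at least 1 on the log2 scale was found for 13 members at 10 µg and 24 h, or 23.2% of the 56 against 5.41% of all tested genes. They are Nop56, Nop58, Fbl, Dkc1, Nhp2, Nop10, Ncl, Nolc1, Noc4l, Nop2, Nop16, Rrp1b and Grwd1, so that 6 of the 7 members of the 2 classes of small nucleolar particle were among them. At 1 µg and 24 h the 3 members at or below -1 were Myc, Dkc1 and Grwd1, 5.36% of the 56 against 1.73% of all genes.

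Myc had the widest error of the 56 members. It had 13.3, 16.7 and 14.7 CPM at 10 µg and 24 h, 18.2, 8.29 and 5.91 CPM at 1 µg and 24 h, 30.6, 31 and 35.7 CPM at 10 µg and 6 h, 24.9, 21.8 and 25.7 CPM at 1 µg and 6 h, and 24.8, 21.6 and 20.1 CPM in untreated cells. The 10 µg 6 h libraries were the highest and both 24 h groups lay below untreated cells, with the 1 µg group spread over a range wide enough to hold all 3 libraries of the 10 µg group. Against untreated cells it fell at 1 µg and 24 h (-1.03 ± 0.30, adjusted p = 0.013). The values of -0.58 ± 0.30 at 10 µg and 24 h (adjusted p = 0.107), 0.55 ± 0.28 at 10 µg and 6 h (adjusted p = 0.339) and 0.12 ± 0.29 at 1 µg and 6 h (adjusted p = 1) did not pass. These p-values rest on a spread shared by all 5 groups. In fits of the compared groups alone Myc rose at 10 µg and 6 h (0.55, adjusted p = 2.56e-05) and fell at 10 µg and 24 h (-0.58, adjusted p = 1.78e-05), and its fall at 1 µg and 24 h did not pass (-1.02, adjusted p = 0.116). Without replicate 1 of the 1 µg 24 h group, the library that stood apart, the fall at 1 µg and 24 h was -1.63 (adjusted p = 7.81e-10).

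Since MYC with its partner MAX binds the E-box CACGTG, the promoter windows of the members were searched for these 6 letters, which read the same on both strands. RefSeq windows from 250 bases before to 50 after a gene's start, on build GRCm38.p6, were matched for 48 members; Bop1, Dcaf13, Fbl, Myc, Npm1, Rrp12, Rrs1 and Tcof1 had no entry. The letters were found in 10 of the 48 members (20.8%), in 11.6% of the 9623 tested genes with a window, and in 8.09% of all 27025 genes in the RefSeq set of windows. In 8 members they began downstream of the start and in 2 upstream. The 10 windows are shown because they are the stretches in which the shared letters sit among different surroundings, each as 30 bases from 5′ to 3′ on the strand of the gene, with the E-box in capitals.
Grwd1: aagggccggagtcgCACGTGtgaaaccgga
Nop2: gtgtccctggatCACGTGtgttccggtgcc
Tsr1: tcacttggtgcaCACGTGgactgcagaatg
Mybbp1a: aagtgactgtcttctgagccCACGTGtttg
Utp20: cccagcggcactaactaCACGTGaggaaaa
Wdr43: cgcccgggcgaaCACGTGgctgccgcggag
Utp4: tgcgcaagcgcgCACGTGgggccggggcgg
Imp4: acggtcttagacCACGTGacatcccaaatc
Ltv1: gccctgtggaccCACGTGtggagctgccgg
Pes1: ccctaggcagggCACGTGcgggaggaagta

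On GRCm38.p6 these windows lie at chr7:45830740-45830769 on the minus strand for Grwd1, chr6:125131811-125131840 on the plus strand for Nop2 and chr11:74898092-74898121 on the plus strand for Tsr1. Those of Mybbp1a, Utp20 and Wdr43 are at chr11:72441347-72441376 (plus), chr10:88826765-88826794 (minus) and chr17:71616220-71616249 (plus). Those of Utp4, Imp4, Ltv1 and Pes1 are at chr8:106893643-106893672 (plus), chr1:34439696-34439725 (plus), chr10:13193092-13193121 (minus) and chr11:3963965-3963994 (plus). The first base of the E-box was 35 bases after the start in Grwd1, 3 after it in Pes1 and up to 41 after it in Mybbp1a, and at -60 in Nop2 and -121 in Imp4. At 10 µg and 24 h the 10 members with the letters had a median log2 fold change of -0.86, from -1.56 for Grwd1 to -0.39 for Pes1, and the 38 members with a window and without them a median of -0.74, from -1.53 for Dkc1 to -0.06 for Imp3. The ranges of both sets overlapped almost fully, and no factor's binding was measured here.

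The comparison of 10 µg with 1 µg after 24 h asked how the response depended on dose. At 10 µg 32 of the 56 members were lower than at 1 µg and 0 were higher, against 35.3% of all tested genes called in either direction, 19.3% lower and 16% higher, and 51 members had a negative log2 fold change, with a median of -0.18. The largest differences were in genes of small nucleolar particles and of large-subunit assembly. From the levels above, Nop10 was lower by 0.57 ± 0.08 on the log2 scale (adjusted p = 5.23e-06), Dkc1 by 0.51 ± 0.05 (adjusted p = 2.02e-08) and Rrp1b by 0.49 ± 0.07 (adjusted p = 2.08e-06). Nop56 was lower by 0.46 ± 0.05 (adjusted p = 2.26e-07), Nolc1 by 0.43 ± 0.06 (adjusted p = 1.52e-06) and Grwd1 by 0.39 ± 0.08 (adjusted p = 0.000182). In each of these 6 genes the 3 libraries of the higher dose lay below the 3 of the lower dose, an arrangement seen in 31 members and in 21.9% of all genes. By role, 2 of 3 box C/D members passed (not Fbl, adjusted p = 0.0973), as did 3 of 4 box H/ACA members (not Gar1, adjusted p = 0.142). All 3 RNA polymerase I members, 10 of 15 large-subunit factors outside PeBoW, and 3 of 5 UTPA members passed. Of the other 12 processome members 2 did (Noc4l and Utp20). Among members whose falls from untreated cells were nearly equal at both doses, Rrs1 differed by -0.02 ± 0.05, Imp4 by -0.01 ± 0.05 and Pes1 by -0.01 ± 0.06. In a fit of these 2 groups alone 20 of the 32 passed, and 23 passed without 1 µg 24 h replicate 2 (22 of them among the 32). The pattern by role depended on the fit. Calls lost in both included Nhp2 of the box H/ACA members and Tcof1 of the RNA polymerase I members. Also lost in both were Heatr1 and Wdr43 of UTPA, and Ddx27, Ebna1bp2 and Ddx56 of the large-subunit factors. The fit of 2 groups also lost Polr1b. Myc had a value of 0.45 ± 0.32 (adjusted p = 0.313), and without 1 µg 24 h replicate 1 it was higher at 10 µg by 1.06 (adjusted p = 3.63e-06).

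No member passed after 6 h. At 10 µg, 0 of 56 passed against untreated cells, where 5.95% of all genes did, and the median was 0.00; 2 members, Npm1 and Nob1, had an unadjusted p under 0.05. At 1 µg 0 of 56 passed, as did 0 of all genes, with a median of -0.02 and 1 member, Wdr12, at an unadjusted p under 0.05. Between 10 µg and 1 µg at 6 h again 0 passed, against 2.35% of all genes, with Fbl at an unadjusted p under 0.05, and the median was 0.02. DESeq2 and limma-voom also called 0 members in these 3 comparisons. Npm1 had 276, 271 and 267 CPM at 10 µg and 6 h and 256, 234 and 246 CPM in untreated cells, with no overlap (0.15 ± 0.05, adjusted p = 0.089). In fits of the compared groups alone Npm1 and Myc rose at 10 µg and 6 h, and Myc was higher at 10 µg than at 1 µg after 6 h (0.43, adjusted p = 0.000201), where the fit of all groups gave 0.43 ± 0.28 (adjusted p = 0.613). Apart from Myc, log2 fold changes at 10 µg and 6 h lay between -0.17 for Nob1 and 0.15 for Npm1.

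The comparisons of 24 h with 6 h at one dose set treated groups against each other, within the fit of all libraries. No untreated group is labelled with either time, so time in culture and length of exposure cannot be told apart here. At 10 µg 53 of 56 members were lower at 24 h and 0 higher, against 69.2% of all genes called, 35.2% lower and 34% higher, with a median of -0.76. Imp3, Nop14 and Nob1 did not pass. At 1 µg 51 were lower and 0 higher, against 60.7% called, 30.5% lower and 30.3% higher, with a median of -0.55, and Tcof1, Imp3, Nop14, Ddx10 and Nob1 did not pass. Dkc1 had 137, 130 and 132 CPM at 10 µg and 6 h and 138, 138 and 134 CPM at 1 µg and 6 h, which overlapped untreated cells, and its differences from the 24 h levels given above were -1.48 ± 0.05 at 10 µg and -1.01 ± 0.05 at 1 µg (adjusted p = 5.64e-18 and 8.99e-15). Grwd1 had 61.9, 63.9 and 69 CPM at 10 µg and 6 h and 73.7, 67.5 and 69.2 CPM at 1 µg and 6 h (-1.44 ± 0.07 and -1.16 ± 0.07 for 24 h against 6 h, adjusted p = 5.45e-15 and 6.22e-13). Nolc1 had 279, 291 and 280 CPM at 10 µg and 6 h and 300, 276 and 274 CPM at 1 µg and 6 h (-1.28 ± 0.06 and -0.85 ± 0.06, adjusted p = 6.29e-16 and 3.15e-12). For these 3 genes all 6 h libraries exceeded all 24 h libraries.

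At 10 µg the falls between 6 h and 24 h that followed in size were those of Nop10, Nop16 and Nop2. Nop10 had 37.2, 38.3 and 42.6 CPM at 6 h (-1.24 ± 0.08, adjusted p = 7.44e-13), Nop16 73.8, 67 and 67.4 CPM (-1.17 ± 0.06, adjusted p = 2.46e-15) and Nop2 154, 148 and 161 CPM (-1.16 ± 0.07, adjusted p = 8.75e-13). At 1 µg the 6 largest falls were those of Grwd1, Myc, Dkc1, Fbl, Nolc1 and Ncl. Fbl had 16.1, 14.3 and 14.8 CPM at 1 µg and 6 h (-0.93 ± 0.10, adjusted p = 1.85e-08) and Ncl 1580, 1550 and 1530 CPM (-0.84 ± 0.05, adjusted p = 7.61e-13). Myc was lower at 24 h than at 6 h at both doses, by 1.12 ± 0.29 on the log2 scale at 10 µg (adjusted p = 0.00511) and by 1.15 ± 0.30 at 1 µg (adjusted p = 0.00723), the second of which did not pass in a fit of the compared groups alone (adjusted p = 0.0852).

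The interaction of dose and time asks if the difference between 10 µg and 1 µg at 24 h differed from that at 6 h. It was negative and passed for 20 of the 56 members and was positive for 0 that passed, against 18.6% of all genes called in either direction, 11% negative and 7.58% positive, with a median of -0.19. Nop10 (-0.51 ± 0.11), Nop56 (-0.50 ± 0.07), Dkc1 (-0.47 ± 0.07), Rrp1b (-0.45 ± 0.09), Nolc1 (-0.43 ± 0.08) and Nop16 (-0.40 ± 0.08) had the largest values, with adjusted p of 0.00198, 4.43e-05, 3.94e-05, 0.00105, 0.000424 and 0.000693 in that order. Nop58, Noc2l, Noc4l, Ddx18, Nop2, Tsr1, Rrp15, Mybbp1a, Wdr12, Bop1, Polr1b, Utp20, Wdr75 and Ddx21 also passed, between -0.35 and -0.22. Myc had 0.02 ± 0.42 (adjusted p = 0.982), and 0.63 (adjusted p = 0.0139) without 1 µg 24 h replicate 1.

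**Figure D4:**
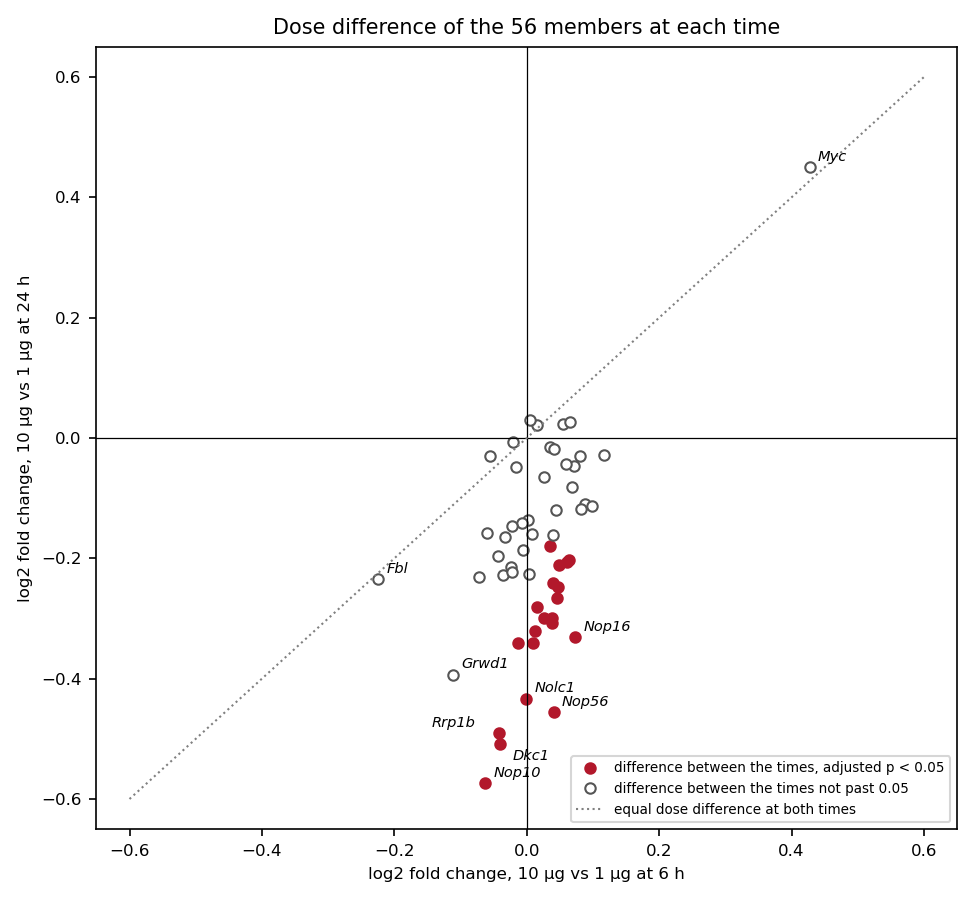
Log2 fold change of 10 µg against 1 µg for each of the 56 members at 24 h (vertical axis) and at 6 h (horizontal axis); filled points had an interaction of dose and time with adjusted p under 0.05, and the dotted line marks an equal difference at both times. Most points lie near 0 on the horizontal axis and below 0 on the vertical one, down to -0.57 for Nop10, while Myc is at 0.43 and 0.45.

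Other genes of the pathway, from lists made by function, fell in most cases. All tested genes, with 34.9% lower and 35.4% higher at 10 µg and 24 h and 31% lower and 30.8% higher at 1 µg and 24 h, are the background for these lists. Of 77 further ribosome biogenesis factors, 62 (80.5%) fell and 2 rose at 10 µg and 24 h (median -0.45), and 64 (83.1%) fell and 2 rose at 1 µg and 24 h (median -0.34). Snu13, which binds both U3 and box C/D RNAs, had 68.7 ± 0.89 CPM at 10 µg and 24 h, 86 ± 3.84 CPM at 1 µg and 24 h, and 156 ± 3.99 CPM in untreated cells (-1.18 ± 0.05 and -0.86 ± 0.05). Ftsj3, a methyltransferase of the precursor, gave -1.04 and -0.71. The RNA exosome is the nuclease complex that trims ribosomal RNA ends. All 13 of its listed genes fell at 10 µg and 24 h (median -0.64), and 12 did at 1 µg and 24 h (median -0.44). The largest falls on the list at 10 µg were those of Exosc2 (-1.39 ± 0.07) and the catalytic subunit gene Dis3 (-1.20 ± 0.05). The list left out the exosome gene Exosc6. It had the lowest log2 fold change of all tested genes after 24 h, -12.24 at 10 µg and -12.24 at 1 µg. What lies behind that value was not tested.

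The genes of the polymerases gave a mixed picture. Of 12 other RNA polymerase I genes, 6 (50%) fell and 3 (25%) rose at 10 µg and 24 h (median -0.17), and 4 (33.3%) fell and 2 (16.7%) rose at 1 µg and 24 h (median -0.09). The falls included the genes of the transcription factors that recruit this polymerase, Ubtf, with 92.9 ± 5.16 CPM at 10 µg and 24 h, 113 ± 6.16 CPM at 1 µg and 24 h and 192 ± 3.84 CPM in untreated cells (-1.05 ± 0.05 and -0.76 ± 0.05), and Rrn3 (-0.76 ± 0.05 and -0.58 ± 0.05). At 10 µg Taf1b, of the promoter selectivity factor, rose by 0.425 ± 0.08. Ubtf was also lower at 10 µg and 6 h (-0.19 ± 0.05, adjusted p = 0.0196), and it and Polr1h (-0.33 ± 0.10) were the 2 of 12 that passed there. Of 21 RNA polymerase III genes 12 (57.1%) fell and 4 (19%) rose at 10 µg and 24 h, and 11 (52.4%) fell and 3 (14.3%) rose at 1 µg and 24 h. The alternative subunit genes Polr3g (-1.09 ± 0.08) and Polr3gl (1.00 ± 0.08) moved in opposite directions at 10 µg and 24 h.

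Genes around MYC and the ribosomal proteins did not move as one. Of 10 tested partners and antagonists of MYC, 5 (50%) rose and 3 (30%) fell at 10 µg and 24 h, and 5 rose and 2 (20%) fell at 1 µg and 24 h. The antagonist genes Mxd4 and Mxd1, whose proteins compete for MAX, rose by 1.29 ± 0.09 and 1.02 ± 0.09 at 10 µg and by 1.70 ± 0.09 and 0.84 ± 0.09 at 1 µg. Mxd3, another antagonist gene of this kind, went the other way. It fell at 10 µg and 24 h (-1.56 ± 0.20, adjusted p = 1.03e-07) and had -0.38 at 1 µg and 24 h. Its level was low, 5.6 ± 0.53 CPM in untreated cells. The family member Mycn had 220 ± 24.9 CPM at 10 µg and 24 h, 386 ± 28.7 CPM at 1 µg and 24 h, and 344 ± 25.3 CPM in untreated cells. It fell at 10 µg (-0.64 ± 0.07, adjusted p = 3.98e-08) and rose at 1 µg (0.17 ± 0.07, adjusted p = 0.036). Of 26 growth and metabolism genes linked to MYC, 22 (84.6%) fell and 4 (15.4%) rose at each dose after 24 h, with medians of -0.77 at 10 µg and -0.56 at 1 µg. The falls included the nucleotide synthesis genes Umps (-1.46 ± 0.06), Pfas (-1.45 ± 0.06) and Gart (-1.25 ± 0.05) at 10 µg. Ppan is on this list and also on that of the further ribosome biogenesis factors, so its fall is counted in both. Of 79 cytosolic ribosomal protein genes 24 (30.4%) fell and 8 (10.1%) rose at 10 µg and 24 h (median -0.06). At 1 µg and 24 h 22 (27.8%) fell and 9 (11.4%) rose (median -0.01). The shares that fell were near those of all tested genes. The shares that rose were below those of all tested genes, 35.4% at 10 µg and 30.8% at 1 µg. Their summed level was 8080 to 8470 CPM at 10 µg and 24 h and 8170 to 8730 CPM in untreated cells, which overlap. Near copies were searched for the members alone, so how far copies affect the counts of ribosomal protein genes was not tested. Of 13 mitochondrially encoded transcripts 4 (30.8%) fell and 0 rose at 10 µg and 24 h (median -0.10), and 3 (23.1%) fell and 1, mt-Atp8, rose at 1 µg and 24 h (median -0.04).

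**Figure D5:**
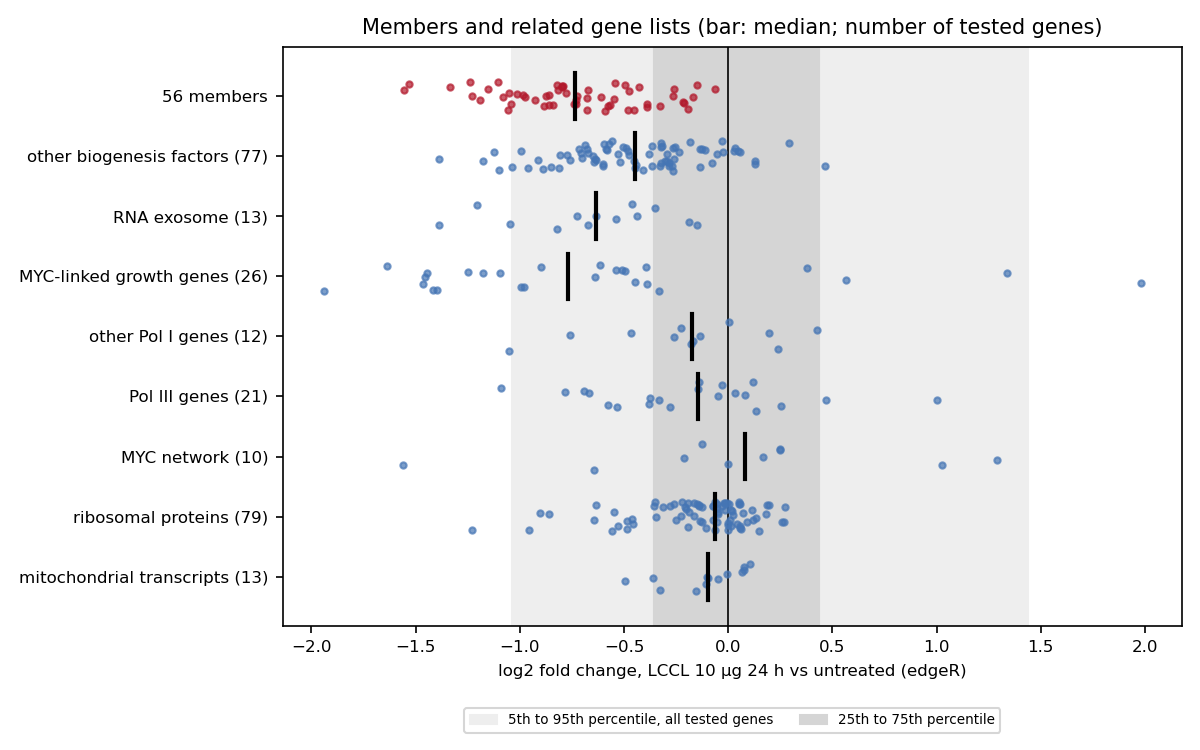
Log2 fold change of every tested gene (points) of the members and 8 related lists at 10 µg and 24 h against untreated cells, with the median of each list (bar) and the range of all 12401 tested genes in grey. The median is -0.74 for the 56 members, -0.45 for the other biogenesis factors, -0.64 for the listed exosome genes and -0.06 for the ribosomal proteins.

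Several members share sequence with other genes, which bears on their counts. Exons of 14 members overlap a protein-coding gene on the opposite strand in the GENCODE M21 annotation of GRCm38, among them Dkc1 with Mpp1 over 45 bases, Nhp2 with Rmnd5b over 44, Rrp1b with Hsf2bp over 54, Bysl with Ccnd3 over 361 and Tsr1 with Srr over 1240. The library kit keeps the strand, but the strand setting of the counting is not given in the sources used here, so reads from both genes may not have been told apart there. For 8 members, Ddx18, Ddx21, Fbl, Imp3, Nop56, Npm1, Pes1 and Wdr12, another transcript matched at 95% identity or more over at least 200 bases. In most cases it was a processed pseudogene, and levels of these 8 are uncertain to that extent. Some matches were to counted genes. A Tulp4 transcript matched Fbl at 99.6% over 690 bases, with summed counts of 159701 for Tulp4 and 3466 for Fbl. Vmn1r88 matched Wdr12 at 97.2% over 1377 bases, with summed counts of 6346 for Vmn1r88 and 9075 for Wdr12. The part of such copies in the falls of these members was not tested. Grwd1, Dkc1 and Nolc1, which had the lowest log2 fold changes at 10 µg and 24 h, are not among these 8.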

How the data were processed

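RNA of 15 libraries of RAW264.7 cells was analysed as 5 groups of 3. The deposited values are integer read counts for each gene symbol, in 1 table of all libraries, per the labels made from TruSeq stranded mRNA libraries; the submitters' processing notes name the build GRCm39, and the aligner, counter, annotation and strand setting used for these counts were not given in the sources used here. Columns were matched to libraries by the names in the labels, and 0 were left unmatched. Genes were filtered with filterByExpr at its defaults, which left 12401 of 25639 symbols holding 99.97% of counts, and TMM factors were computed. One fit of all libraries was made in R 4.3.3 with edgeR 4.0.16 (glmQLFit, robust, 10 residual degrees of freedom; glmQLFTest, two-sided), with Benjamini-Hochberg adjustment over the 12401 genes and a threshold of 0.05. The common biological coefficient of variation was 5.68%. An SE is the absolute log2 fold change divided by the root of F, and fitted values used a prior count of 0.125.

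Values are printed by library for Myc and for the 6 called members with the largest absolute log2 fold change in each comparison, and at most 3 genes of each other list are named per comparison by the smallest p. Noc4l, Tsr1, Tcof1, Imp3, Nob1, Npm1 and Polr1a are given with values outside that rule. So are Polr3gl at 10 µg, Mycn at 1 µg, Mxd3, Exosc6 and the marker genes. All of these were chosen after their values were seen. The members, role groups and lists were chosen with earlier results of these data known, and no p-value was computed over them. Alternatives were RLE size factors, DESeq2 1.42.0, limma-voom (limma 3.58.1), no filter, a replicate block, fits of the compared groups alone, and leaving out each library in turn. The scripts were tested on simulated counts. Promoter windows are from RefSeq on GRCm38.p6, a build other than that of the counts.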

Additional observations from a re-analysis of the deposited data

Results flagged for a closer look

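The difference between 10 µg and 1 µg of LCCL was not the same at 24 h and at 6 h for 20 members, by the test of the interaction of dose and time in the edgeR quasi-likelihood fit, in all cases in the negative direction; 11% of all tested genes were called in that direction. The largest were Nop10 (log2 difference of differences -0.51), Nop56 (-0.50), Dkc1 (-0.47), Rrp1b (-0.45), Nolc1 (-0.43) and Nop16 (-0.40). In each of these 6 genes all 3 libraries at 10 µg and 24 h lay below all 3 at 1 µg and 24 h, an arrangement seen in 21.9% of all tested genes. These 6 were picked by the size of an interaction computed from the same libraries, so the arrangement is no separate evidence. They kept their call under every alternative run for this comparison, and the count of 20 was 15 without 1 µg 24 h replicate 2 and 24 without 1 µg 24 h replicate 1. Dixon's test for single outlying samples was not run on these groups of 3 libraries.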

How the results depend on the processing

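The counts of members called stayed within 1.5 times of the reported value in all but 3 of the alternatives run for the 9 comparisons. These were fits of the compared groups alone, which called 2 members at 10 µg and 6 h (Npm1 and Myc, both higher) and 1 member between 10 µg and 1 µg at 6 h (Myc, higher) where the fit of all groups called 0, and 20 in place of 32 between 10 µg and 1 µg at 24 h. Leaving out each library in turn gave 51 to 54 members called at 10 µg and 24 h, 50 to 53 at 1 µg and 24 h, 0 at 10 µg and 6 h, 0 at 1 µg and 6 h, 23 to 35 between 10 µg and 1 µg at 24 h, 0 between them at 6 h, 53 to 55 for 24 h against 6 h at 10 µg, 51 to 52 at 1 µg, and 15 to 24 for the interaction of dose and time. The 6 called members with the largest change in a comparison kept their direction and call in its alternatives, except Myc. Changes of call among the other members given by library or level included these. Against untreated cells, Nob1 lost its call at 10 µg and 24 h without untreated replicate 2. At 1 µg and 24 h Tcof1 passed without 1 µg 24 h replicate 2 and Npm1 without replicate 3. Between doses at 24 h, Ncl, Nhp2 and Tcof1 lost their calls in the fit of those groups alone. They also lost them without 1 µg 24 h replicate 2. For 24 h against 6 h at 1 µg, Npm1 lost its call without replicate 2 of either group. The interaction call on Nop2 was lost without 1 µg 6 h replicate 3 or 1 µg 24 h replicate 2. The interaction of Myc, 0.02, was reversed without 1 µg 6 h replicate 1 (-0.0028) or 3 (-0.03), 1 µg 24 h replicate 2 (-0.15) or 3 (-0.26), 10 µg 6 h replicate 1 (-0.02) or 2 (-0.0079) and 10 µg 24 h replicate 2 (-0.07); without 1 µg 24 h replicate 1 it passed at 0.63. The cause was not tested. Same-numbered libraries of different groups deviated from their group means with correlations from -0.09 to 0.11, and 1 of 30 pairs exceeded 0.1. Of pairs with different numbers 2 of 60 did, and 7 of 15 libraries correlated best with their own number. These values cannot show if same-numbered libraries were set up together, and the main fit did not pair them. With a replicate block 53 members were called at 10 µg and 24 h, 52 at 1 µg and 24 h, 31 between doses at 24 h and 19 for the interaction. Every member had at least 120 counts in each library, and 3 libraries a group limit the calls on small changes such as those of Nop14, Ddx10 and Wdr74.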
